A study of Mus musculus with 18 samples.

Results

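C-type lectin receptors are surface proteins of myeloid cells that bind sugars and glycolipids of fungi, mycobacteria and damaged cells. Most of those described here activate the cell: Mincle (Clec4e), MCL (Clec4d), Dectin-2 (Clec4n) and DCAR (Clec4b1) signal through the FcR gamma adaptor (Fcer1g) and the kinase Syk, Dectin-1 (Clec7a) carries its own Syk-binding motif, and MDL-1 (Clec5a) signals through the adaptor DAP12 (Tyrobp). DCIR1 (Clec4a2) has an inhibitory motif that recruits phosphatases, and Clec4a1 and Clec4a3 code for its relatives DCIR4 and DCIR3. The 9 genes, of 24052 listed in the count tables, were chosen by symbol and by having counts in both experiments of the series, and all 9 had counts. They were proposed with results of these data known. The fall of Clec4b1 with dimethyl itaconate was among those results, so it is given as a description, without a test. Clec4b1 passed the filter on low counts through its Unst libraries alone, so LPS against Unst is described for it without a test as well.

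The cells were bone marrow-derived macrophages of C57BL/6 mice, grown with 20 ng/ml M-CSF, and polyadenylated RNA was counted from its 3′ end in 18 libraries. Experiment 1 used wild-type cells in 4 groups of 3 libraries: dimethyl itaconate at 0.25 mM for 12 h and then LPS at 100 ng/ml for 4 h (DI+LPS), LPS for 4 h after vehicle (LPS), dimethyl itaconate alone (DI), and vehicle alone (Unst). Dimethyl itaconate is a cell-permeable ester of itaconate, a metabolite that macrophages make after LPS with the enzyme encoded by Irg1 (Acod1). Experiment 2 compared 3 libraries of Irg1-/- cells with 3 of WT cells, each after 24 h of LPS at 100 ng/ml and IFNg at 50 ng/ml. Its WT group was taken from the genotype label, and the targeted gene Acod1 went with these labels, with 56 to 182 counts in Irg1-/- libraries against 12464 to 19145 counts in WT libraries. The labels do not say whether the 3 libraries of a group came from separate mice or cultures, so p-values measure the spread between these libraries, which may be technical.

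Libraries held 955718 to 7629669 counts in experiment 1 and 3088644 to 5491684 counts in experiment 2. The third LPS library was the shallowest and stood apart: Prdx1 took 17.6% of its counts, and 6.17% of the genes predicted to be detected were at 0, against 2.04% and 2.09% in the other LPS libraries and 0.0892% to 0.326% in the other 9 libraries of that experiment. For the comparisons that use the LPS group, the members' calls are given with and without it. All 8 macrophage markers had counts in every group. The dendritic cell marker Flt3 was at 0 throughout, T and NK cell markers summed to at most 1.32 CPM (counts-per-million, scaled by TMM, which corrects library totals for composition) and B cell markers to at most 0.34 CPM. In such bulk samples, fewer cells of a type and less RNA per cell cannot be told apart.

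All 9 genes lie on mouse chromosome 6 (GRCm38.p6 coordinates). Clec4a1 (chr6:122921848-122934619), Clec4a3 (chr6:122952515-122969878), Clec4b1 (chr6:123049962-123071555), Clec4a2 (chr6:123122690-123143999), Clec4n (chr6:123229843-123247024), Clec4d (chr6:123262107-123275268) and Clec4e (chr6:123281789-123289871) form a cluster of 368 kb. Clec4e is on the minus strand and the other 6 are on the plus strand. Clec7a (chr6:129461591-129472785) and Clec5a (chr6:40574898-40585805), both on the minus strand, lie outside it. Near-identical 3′ ends can misplace reads of 3′ libraries. Of the 30-base stretches in the last 500 bases of each gene's transcripts, 28.9% of those of Clec4b1 and 14.5% of those of Clec4a2 were also found in another gene's transcripts, mostly in each other's, and at most 3.05% for the other 7 genes.

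The 250 bases before the start of 4 genes are shown because these genes answered the stimuli in different ways: Clec4e with LPS, Clec4d with LPS and with dimethyl itaconate plus LPS, Clec7a lower with LPS, and Clec4a1 lower with dimethyl itaconate. They are RefSeq sequence of GRCm38.p6, written 5′ to 3′ on the strand of the gene: chr6:123289872-123290121 (minus strand) for Clec4e, chr6:123261857-123262106 (plus strand) for Clec4d, chr6:129472786-129473035 (minus strand) for Clec7a and chr6:122921598-122921847 (plus strand) for Clec4a1. Capitals mark matches, on either strand, to GAGGAA, the core bound by PU.1, or to TTGCNNAA, bound by C/EBP factors.
Clec4e: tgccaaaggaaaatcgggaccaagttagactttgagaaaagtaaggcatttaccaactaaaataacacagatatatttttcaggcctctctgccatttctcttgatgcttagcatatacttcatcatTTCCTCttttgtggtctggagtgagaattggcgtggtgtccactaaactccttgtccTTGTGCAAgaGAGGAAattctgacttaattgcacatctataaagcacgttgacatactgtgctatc
Clec4d: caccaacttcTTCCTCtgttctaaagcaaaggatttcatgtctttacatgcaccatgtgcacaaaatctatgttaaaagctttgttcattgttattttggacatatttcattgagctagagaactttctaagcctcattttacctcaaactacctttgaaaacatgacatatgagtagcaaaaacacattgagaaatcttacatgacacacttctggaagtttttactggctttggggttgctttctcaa
Clec7a: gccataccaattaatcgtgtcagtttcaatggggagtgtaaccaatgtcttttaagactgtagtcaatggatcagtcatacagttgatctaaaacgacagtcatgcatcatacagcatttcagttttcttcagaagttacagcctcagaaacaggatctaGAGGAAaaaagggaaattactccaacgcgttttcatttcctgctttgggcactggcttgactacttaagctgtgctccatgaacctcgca
Clec4a1: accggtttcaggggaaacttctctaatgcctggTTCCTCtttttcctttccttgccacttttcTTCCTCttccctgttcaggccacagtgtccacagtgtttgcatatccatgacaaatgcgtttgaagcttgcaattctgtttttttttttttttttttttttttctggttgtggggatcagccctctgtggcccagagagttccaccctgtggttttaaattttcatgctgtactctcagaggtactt

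A PU.1 core was present in this window for Clec4e, Clec4d, Clec7a, Clec4a1, Clec4b1, Clec5a and 1 of 2 starts of Clec4a3, not for Clec4a2, and in 23.3% of all 32851 promoters of the same length. The C/EBP motif was found for Clec4e, at 66 to 59 bases before the start, and in no other member; 9.56% of all promoters held it. The interferon-response motif GAAANNGAA was found for Clec4b1, where it overlapped a PU.1 core, and in 7.13% of all promoters. None of the windows held the NF-kB motif, the NRF2 motif TGACNNNGC or the AP-1 motif TGANTCA, which 7.25%, 10.2% and 6.75% of all promoters held. Windows were read for 8 of the 9 members, and Clec4n was not among them.

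LPS for 4 h raised Clec4e, Clec5a and Clec4d and lowered Clec7a and Clec4a3, relative to unstimulated cells. Clec7a and Clec4a3 did not pass with only LPS and Unst libraries in the fit. Clec4a1 also passed the test as higher, but not without the third LPS library. Apart from Clec4b1, 6 of the 8 members passed (4 higher and 2 lower, edgeR's quasi-likelihood test, Benjamini-Hochberg adjusted p under 0.05), against 34.3% of the 10285 genes tested. Without the third LPS library, 3 of these 8 were higher (Clec4e, Clec5a and Clec4d, at log2 values of 7.24, 3.55 and 1.13) and 2 lower (Clec7a and Clec4a3, at -1.18 and -0.91), with adjusted p of 1.1e-10 to 0.012. Summed macrophage markers were lower in LPS libraries (4843 to 5119 CPM) than in Unst libraries (5158 to 7367 CPM). All 8 of them had counts, and singly they split. Fcgr1 and Cd14 passed as higher (log2 2.48 and 2.77), and Csf1r and Lyz2 as lower (log2 -0.92 and -1.07). The part of these markers in the members' differences was not tested. Levels below are in TMM-scaled CPM, given for replicates 1, 2 and 3. LPS and Unst libraries did not overlap for 44% of all genes tested.

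Clec4e codes for Mincle, a receptor for mycobacterial cord factor whose gene is a known LPS target in macrophages. It had 485, 364 and 290 CPM in LPS libraries, against 3.98, 0.680 and 2.88 CPM in Unst libraries. Every LPS library was far above every Unst library. The filter's level of 2.36 CPM was reached in all 3 LPS libraries and in 2 of the Unst libraries. The gene was 135-fold higher with LPS (log2 7.08 ± 0.56 SE, adjusted p = 2.5e-08).

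Clec5a codes for MDL-1, which binds dengue virus. It had 76.8, 89.8 and 32.7 CPM in LPS libraries, against 4.08, 13.3 and 6.08 CPM in Unst libraries. The groups did not overlap, and the third LPS library was the lowest of the LPS group. Clec5a was 9.22-fold higher (log2 3.20 ± 0.51 SE, adjusted p = 1e-04).

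Clec4d, which codes for MCL, the partner of Mincle, was at 1057, 1037 and 793 CPM in LPS libraries, against 481, 525 and 463 CPM in Unst libraries. It rose by 0.98 ± 0.27 SE on the log2 scale (adjusted p = 0.01), with no overlap between groups. Scaled by library totals alone the difference was 0.04 (adjusted p = 0.92).

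Clec7a codes for Dectin-1, the receptor for fungal beta-glucan, and went the other way. It had 195, 168 and 307 CPM in LPS libraries, against 416, 368 and 482 CPM in Unst libraries. It fell by 0.93 ± 0.30 SE on the log2 scale (adjusted p = 0.023). The lowest Unst library was above the highest LPS library. The call was lost without the first or the third Unst library (adjusted p = 0.052 and 0.084) and without the first or second LPS library (adjusted p = 0.052 and 0.076). With only LPS and Unst libraries in the fit it was lost too (adjusted p = 0.11).

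Clec4n, which codes for Dectin-2, a receptor for fungal mannans, had 30.5, 19.1 and 0 CPM in LPS libraries, against 20.7, 12.6 and 30.4 CPM in Unst libraries. The groups overlapped and the gene did not pass (log2 -0.17, adjusted p = 0.83). The count of 0 was in the third LPS library, the shallowest, where 3 counts equal 5.45 CPM.

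Of the DCIR genes, Clec4a3 had 68.9, 56.1 and 67.2 CPM in LPS libraries, against 123, 117 and 122 CPM in Unst libraries. It fell by 0.92 ± 0.27 SE on the log2 scale (adjusted p = 0.015), with groups far apart and little spread inside either. The adjusted p was 0.053 without the second LPS library, and 0.073 with only LPS and Unst libraries in the fit.

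Clec4a2 had 104, 86.5 and 171 CPM in LPS libraries, against 113, 118 and 115 CPM in Unst libraries. The Unst values lay inside the LPS range, and the gene did not pass (log2 0.04, adjusted p = 0.93). With library totals alone the sign turned and it passed as lower (log2 -0.97, adjusted p = 0.013).

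Clec4a1 had 488, 415 and 1336 CPM in LPS libraries, against 287, 411 and 316 CPM in Unst libraries. The third LPS library was more than the other LPS libraries combined. The log2 difference was 1.14 ± 0.40 SE (adjusted p = 0.037) with it and 0.45 (adjusted p = 0.25) without it. The call was also lost without the first or the third Unst library (adjusted p = 0.12 and 0.11) or the first DI or first DI+LPS library (adjusted p = 0.05 each), and the difference was 0.06 (adjusted p = 0.89) with library totals alone.

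Clec4b1, which codes for DCAR, a receptor for mycobacterial mannosides, was the member with the fewest counts. It had 1, 1 and 0 counts in LPS libraries, against 56, 18 and 47 counts in Unst libraries. The ratio of LPS to Unst over the summed counts was 0.0602 (exact 95% interval 0.00720 to 0.222, counting error only). Its neighbour with shared 3′ sequence, Clec4a2, averaged 120 ± 44.4 CPM in LPS libraries and 115 ± 2.30 CPM in Unst libraries (SD, n = 3 each).

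**Figure D1:**
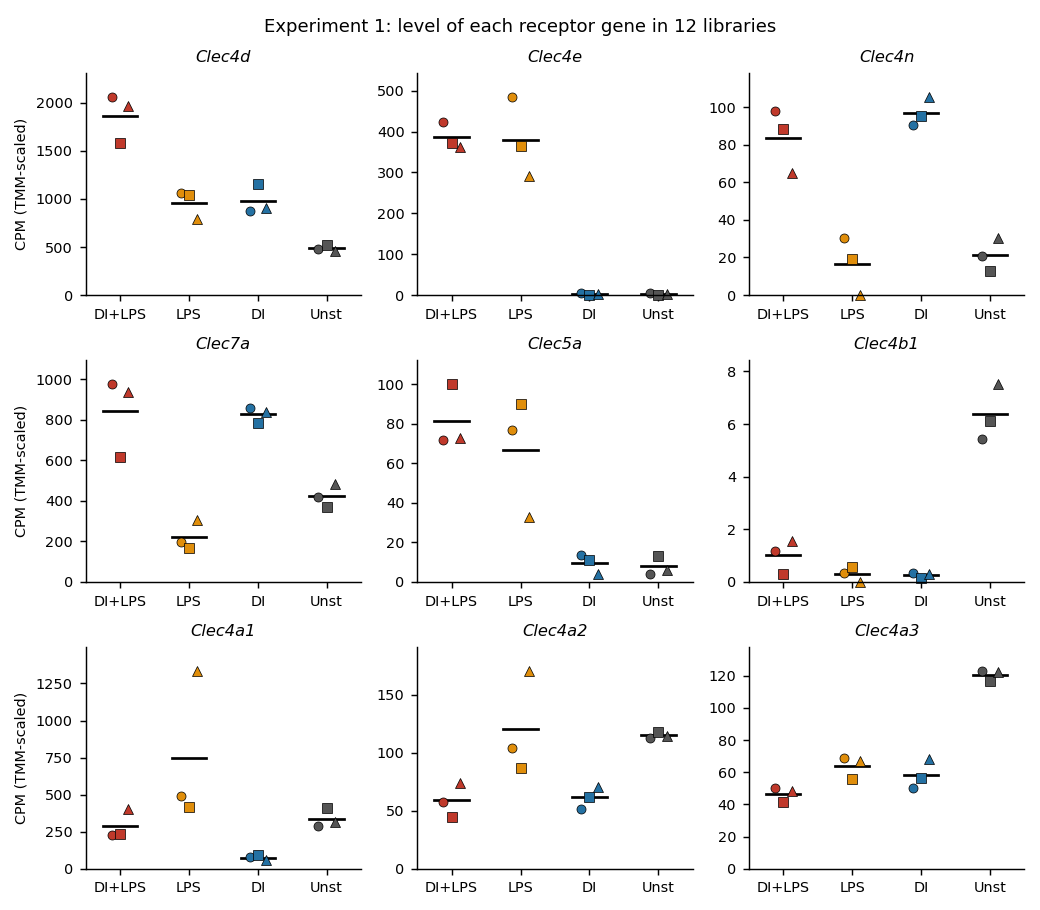
Level of each gene in CPM (TMM-scaled, linear axis from 0) in the 12 libraries of experiment 1. Circles, squares and triangles are replicates 1, 2 and 3, and bars are group means: Clec4e and Clec5a are high in both groups that had LPS, Clec4n and Clec7a in both groups that had dimethyl itaconate, and the third LPS library is the high triangle of Clec4a1 (1336 CPM).

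Dimethyl itaconate alone raised Clec4n and lowered Clec4a1 and Clec4a3, relative to unstimulated cells. Apart from Clec4b1, 3 of the 8 members passed (1 higher and 2 lower), against 2.84% of all genes tested. Clec4d and Clec7a had log2 differences about as large as that of Clec4a3, but did not pass in the fit over all 12 libraries. DI and Unst libraries did not overlap for 30.5% of all genes tested.

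Clec4n had 90.6, 95.4 and 105 CPM in DI libraries, against 20.7, 12.6 and 30.4 CPM in Unst libraries. All DI libraries lay close together and well above all Unst libraries. The rise was 2.18 ± 0.50 SE on the log2 scale (adjusted p = 0.022). Without any 1 of the DI libraries, or the first or second Unst library, the log2 value was between 1.94 and 2.23 and the adjusted p between 0.066 and 0.13. The call was also lost with library totals alone. Without the third LPS library, which is in neither group compared, the adjusted p was 7.6e-05. That fit differs in its estimate of spread, and also in its scaling and in the genes tested (10628) and adjusted over.

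Clec4d had 875, 1159 and 904 CPM in DI libraries, against 481, 525 and 463 CPM in Unst libraries. The groups did not overlap, and the difference of 1.00 ± 0.27 SE (log2) had an adjusted p of 0.06. Clec7a had 859, 784 and 839 CPM in DI libraries, against 416, 368 and 482 CPM in Unst libraries. These groups did not overlap either, and the log2 difference of 0.97 ± 0.30 SE had an adjusted p of 0.10. Without the third LPS library the adjusted p was 0.0077 for Clec4d and 0.013 for Clec7a.

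Clec4a1 had 77.4, 93.5 and 55.8 CPM in DI libraries, against 287, 411 and 316 CPM in Unst libraries. Each DI library was far below each Unst library. The gene was 4.48-fold lower with DI (log2 -2.16 ± 0.42 SE, adjusted p = 0.0059), and the adjusted p was 0.052 without the third DI library.

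Clec4a3 had 50.4, 56.1 and 68.1 CPM in DI libraries, against 123, 117 and 122 CPM in Unst libraries. It fell by 1.05 ± 0.27 SE on the log2 scale (adjusted p = 0.04), and the groups did not overlap. The log2 value stayed between -1.25 and -0.95 in all 18 alternatives. The adjusted p as rounded was under 0.05 in 7 of them, and it rounds to 0.05 with the replicate block, where the call held. The call was lost without any 1 of the Unst, DI or DI+LPS libraries (adjusted p 0.057 to 0.22).

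Clec4a2 had 51.8, 62.3 and 70.8 CPM in DI libraries, against 113, 118 and 115 CPM in Unst libraries. The groups were apart, with a log2 difference of -0.90 ± 0.31 SE and an adjusted p of 0.15. Without the third LPS library the adjusted p was 0.032.

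Clec4b1 had 3, 1 and 3 counts in DI libraries, against 56, 18 and 47 counts in Unst libraries. This is the fall that was known when the genes were chosen, 20.6-fold (log2 -4.36). DI libraries were thus about as low as LPS libraries, and Unst libraries alone held more than a few counts.

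Clec4e had 3.88, 0.661 and 3.04 CPM in DI libraries, against 3.98, 0.680 and 2.88 CPM in Unst libraries (log2 -0.10, adjusted p = 0.96). Clec5a had 13.7, 11.2 and 4.19 CPM in DI libraries, against 4.08, 13.3 and 6.08 CPM in Unst libraries (log2 0.38, adjusted p = 0.80). For these LPS-responsive genes the groups overlapped. Summed macrophage markers were lower in DI libraries (2990 to 4040 CPM) than in Unst libraries (5158 to 7367 CPM), and so were summed neutrophil markers (144 to 236 CPM in DI against 257 to 327 CPM in Unst) and summed stromal markers (20.5 to 26.1 CPM in DI against 30.1 to 58.8 CPM in Unst). Their part in the lower levels of Clec4a1, Clec4a3 and Clec4b1 was not tested.

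Among cells that had LPS, those given dimethyl itaconate first had more Clec7a, Clec4n and Clec4d RNA than those given vehicle, while Clec4e and Clec5a did not differ beyond their spread. Of the 9 members 5 passed in DI+LPS against LPS (3 higher and 2 lower), against 15.9% of all genes tested. Clec4a1 and Clec4a2 were the lower ones, and without the third LPS library neither passed, with 3 higher and 0 lower. DI+LPS and LPS libraries did not overlap for 29.6% of all genes tested.

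Clec7a had 976, 617 and 935 CPM in DI+LPS libraries, against 195, 168 and 307 CPM in LPS libraries. The lowest DI+LPS library was above the highest LPS library. Clec7a was 3.80-fold higher (log2 1.93 ± 0.31 SE, adjusted p = 0.00039), and the log2 value was 2.20 (adjusted p = 1.9e-05) without the third LPS library. It passed in all 19 alternatives tried (adjusted p 2e-08 to 0.011).

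Clec4n had 98.0, 88.4 and 65.2 CPM in DI+LPS libraries, against 30.5, 19.1 and 0 CPM in LPS libraries. The groups did not overlap. It was higher by 2.13 ± 0.52 SE on the log2 scale (adjusted p = 0.01), and by 1.72 (adjusted p = 0.002) without the third LPS library. The call was lost with only DI+LPS and LPS libraries in the fit (adjusted p = 0.087).

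Clec4d had 2062, 1578 and 1964 CPM in DI+LPS libraries, against 1057, 1037 and 793 CPM in LPS libraries. All DI+LPS libraries were above all LPS libraries, with a rise of 0.96 ± 0.27 SE (log2, adjusted p = 0.024). The call was lost without the first or the third DI+LPS library (adjusted p = 0.10 and 0.069), and with only DI+LPS and LPS libraries in the fit (adjusted p = 0.11). It held without the third LPS library (log2 0.82, adjusted p = 0.035).

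Clec4e had 423, 372 and 363 CPM in DI+LPS libraries, against 485, 364 and 290 CPM in LPS libraries. The DI+LPS values lay inside the LPS range (log2 0.02 ± 0.41 SE, adjusted p = 0.98). Clec5a had 71.5, 100.1 and 73.0 CPM in DI+LPS libraries, against 76.8, 89.8 and 32.7 CPM in LPS libraries, which overlapped (log2 0.25 ± 0.46 SE, adjusted p = 0.76). The log2 values without the third LPS library were -0.16 for Clec4e and -0.05 for Clec5a, and neither passed (adjusted p = 0.81 and 0.96).

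Clec4a1 had 225, 231 and 402 CPM in DI+LPS libraries, against 488, 415 and 1336 CPM in LPS libraries. The log2 difference was -1.38 ± 0.41 SE (adjusted p = 0.028), and -0.68 (adjusted p = 0.13) without the third LPS library. It was also over the threshold without the first or second DI+LPS library (adjusted p = 0.13 and 0.12).

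Clec4a2 had 57.6, 45.0 and 73.9 CPM in DI+LPS libraries, against 104, 86.5 and 171 CPM in LPS libraries. The groups were apart, at -1.01 ± 0.32 SE on the log2 scale (adjusted p = 0.036), and at -0.72 (adjusted p = 0.077) without the third LPS library. The adjusted p was under 0.05 in 6 of 19 alternatives and between 0.0047 and 0.15 over all of them.

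Clec4a3 had 50.4, 41.6 and 48.1 CPM in DI+LPS libraries, against 68.9, 56.1 and 67.2 CPM in LPS libraries (log2 -0.45, adjusted p = 0.29). Clec4b1 had 6, 1 and 5 counts in DI+LPS libraries, against 1, 1 and 0 in LPS libraries, a ratio of 2.77 (exact 95% interval 0.617 to 25.5, counting error only). Neither passed, although for Clec4a3 all DI+LPS libraries were lower than all LPS libraries.

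**Figure D2:**
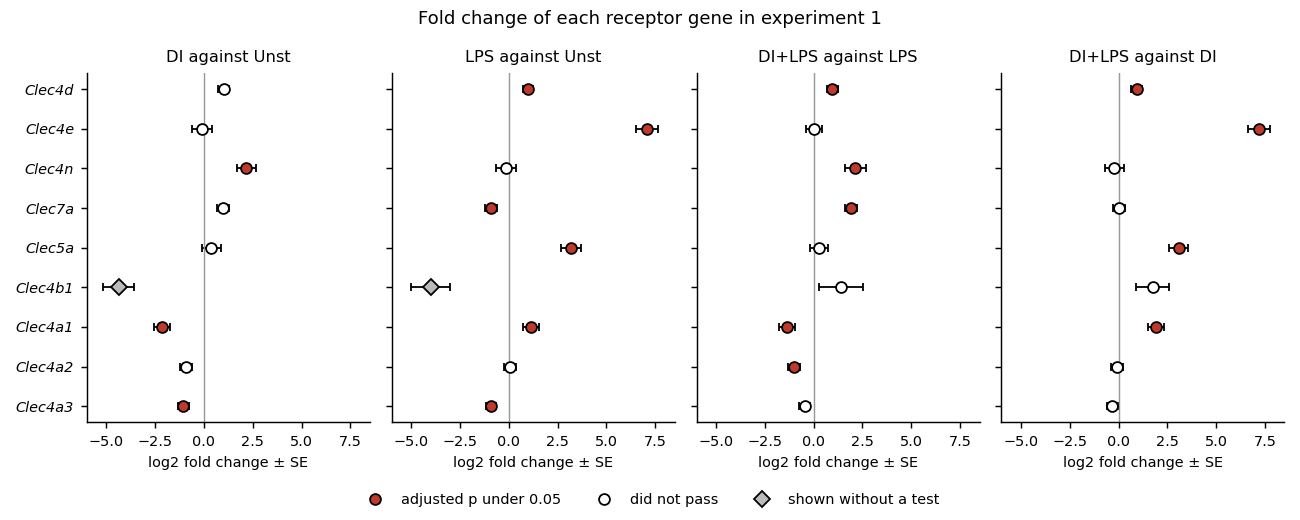
Log2 fold change with its standard error for each gene in 4 comparisons of experiment 1, from the fit over 12 libraries. Filled circles passed at an adjusted p under 0.05, open circles did not, and diamonds are Clec4b1 in DI against Unst and in LPS against Unst, shown without a test; without the third LPS library, Clec4a1 and Clec4a2 do not pass in DI+LPS against LPS and Clec4a1 does not pass in LPS against Unst.

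Set against dimethyl itaconate alone, adding LPS raised 4 of the 9 members and lowered none (18.9% of all genes passed). Summed markers were higher in DI+LPS than in DI libraries for macrophages (4274 to 5394 CPM against 2990 to 4040 CPM). Neutrophil sums were 254 to 379 CPM against 144 to 236 CPM, and stromal sums 27.5 to 41.4 CPM against 20.5 to 26.1 CPM. Singly, log2 values were above 0 for 5 of 8 macrophage, 3 of 5 neutrophil and 4 of 5 stromal markers tested. Dendritic cell sums were 27.2 to 30.1 CPM against 9.25 to 21.4 CPM, with Flt3 at 0. In DI+LPS libraries they were mostly Itgax (26.3 to 29.4 CPM), which did not pass (log2 0.99, adjusted p = 0.21). Siglech had 1 count in DI+LPS libraries against 14 in DI libraries in sum. The part of these markers in the members' differences was not tested. Clec4e, at the DI+LPS levels given above against 3.88, 0.661 and 3.04 CPM in DI libraries, was 147-fold higher (log2 7.20 ± 0.55 SE, adjusted p = 3.6e-08). Clec5a was 8.43-fold higher (log2 3.08 ± 0.49 SE, adjusted p = 0.00016). These are close to their values in LPS against Unst, which come from other libraries.

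Clec4a1 was higher by 1.92 ± 0.41 SE (log2, adjusted p = 0.0024) with DI+LPS than with DI, where it was lowest of all 4 groups. Clec4d was higher by 0.93 ± 0.27 SE (log2, adjusted p = 0.022). That call was lost without the first or the third DI library (adjusted p = 0.10 and 0.096), the first or the third DI+LPS library (adjusted p = 0.11 and 0.084), or with library totals alone (log2 0.36, adjusted p = 0.38). It was also lost with no low-count filter. Clec7a, which was lower with LPS in vehicle cells, averaged 843 ± 197 CPM in DI+LPS libraries and 827 ± 39.3 CPM in DI libraries (SD, n = 3 each; log2 0.03 ± 0.30 SE, adjusted p = 0.97). The other members, Clec4n, Clec4a2, Clec4a3 and Clec4b1, did not pass (log2 -0.32 to 1.75).

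The interaction of dimethyl itaconate with LPS asks whether its effect differs with and without LPS. None of the 8 members other than Clec4b1 passed, against 2.91% of all genes tested, with 1 of these 8 at an unadjusted p under 0.05 and none passing in DESeq2. Clec7a had the lowest p among these 8 (log2 0.96 ± 0.42 SE, adjusted p = 0.24). Without the third LPS library the interaction passed for Clec7a (log2 1.20, adjusted p = 0.048) and for Clec4a1 (log2 1.46, adjusted p = 0.035). The log2 interaction was -0.05 ± 0.38 SE for Clec4d, 0.12 ± 0.65 SE for Clec4e and -0.13 ± 0.67 SE for Clec5a. The value for Clec4b1 was 5.77 ± 1.32 SE. It includes the known fall with DI, and all 3 treated groups held 12 or fewer counts in sum. With DI and LPS libraries each already near 0, DI+LPS libraries could hardly be lower, so a positive value was largely fixed in advance.

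By mean level, Clec4d was highest in DI+LPS (1868 ± 256 CPM), then in DI (979 ± 157 CPM) and LPS (962 ± 147 CPM), and lowest in Unst (489 ± 32.0 CPM; SD, n = 3 each), and the DI and LPS groups did not differ beyond their spread. Clec7a was highest in DI+LPS and DI, which did not differ beyond their spread, and was lower in LPS (223 ± 73.6 CPM) than in Unst (422 ± 57.2 CPM). Clec4a3 averaged 46.7 to 64.1 CPM in DI+LPS, LPS and DI, against 121 ± 3.61 CPM in Unst. Scaled CPM move with the scaling factors, which were 0.576 to 1.47, so that with library totals alone the LPS and Unst levels of Clec4d differ by 0.04 on the log2 scale.

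Macrophages without Irg1, which lack the enzyme that makes itaconate, were compared with WT cells in experiment 2. After 24 h of LPS and IFNg, 0 of the 8 members tested passed in Irg1-/- against WT (0.0632% of 9491 genes did), with 4 at an unadjusted p under 0.05 and 0 in DESeq2. The labels do not say what the replicate numbers mean. They were taken to pair the libraries of experiment 2 because same-numbered libraries deviated together in these same data (r = 0.354 to 0.455). With the replicate number as a block, 4 of the 8 passed, against 6.26% of all genes: Clec4a1, Clec4a2 and Clec4a3 as higher and Clec4n as lower in Irg1-/- cells. Summed dendritic cell markers were lower in Irg1-/- libraries (16.9 to 26.9 CPM) than in WT libraries (27.6 to 38.8 CPM), with Flt3 at 0 in both, and their part in these differences was not tested.

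Clec4a3 had 62.8, 43.7 and 57.5 CPM in Irg1-/- libraries, against 28.5, 27.1 and 33.3 CPM in WT libraries. All Irg1-/- libraries were above all WT libraries. The log2 difference was 0.88 (adjusted p = 0.26) without the block and 0.87 (adjusted p = 0.00016) with it.

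Clec4a2 had 49.3, 47.9 and 65.1 CPM in Irg1-/- libraries, against 28.2, 26.5 and 44.6 CPM in WT libraries. Each Irg1-/- library was above all WT libraries, at a log2 difference of 0.70 (adjusted p = 0.57) without the block and 0.72 (adjusted p = 0.0016) with it.

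Clec4a1 had 135, 155 and 197 CPM in Irg1-/- libraries, against 121, 92.8 and 110 CPM in WT libraries. The groups did not overlap, and the log2 difference was 0.59 (adjusted p = 0.57) without the block and 0.58 (adjusted p = 0.0011) with it.

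Clec4n had 21.7, 22.8 and 28.3 CPM in Irg1-/- libraries, against 44.1, 36.7 and 60.9 CPM in WT libraries. All Irg1-/- libraries were below all WT libraries. The log2 difference was -0.96 (adjusted p = 0.26) without the block and -0.95 (adjusted p = 8.9e-05) with it.

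The 4 other genes tested overlapped between genotypes. Over all 9491 genes tested, Irg1-/- and WT libraries did not overlap for 13.4%. Clec4d had 601, 329 and 375 CPM in Irg1-/- libraries, against 660, 403 and 485 CPM in WT libraries (log2 -0.25, adjusted p = 0.95). Clec4e had 96.0, 82.0 and 136 CPM in Irg1-/- libraries, against 86.8, 97.6 and 127 CPM in WT libraries (log2 0.01, adjusted p = 1).

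Clec7a had 220, 216 and 156 CPM in Irg1-/- libraries, against 251, 237 and 168 CPM in WT libraries (log2 -0.15, adjusted p = 0.97). Clec5a had 10.3, 3.97 and 12.3 CPM in Irg1-/- libraries, against 8.95, 11.2 and 11.3 CPM in WT libraries (log2 -0.22, adjusted p = 0.98). For Clec4d and Clec7a the Irg1-/- library was the lower in each of the 3 numbered pairs. Clec4b1 was too low to test, with 2, 3 and 7 counts in Irg1-/- libraries against 0, 0 and 2 counts in WT libraries (ratio 4.33, exact 95% interval 0.963 to 39.8, counting error only).

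**Figure D3:**
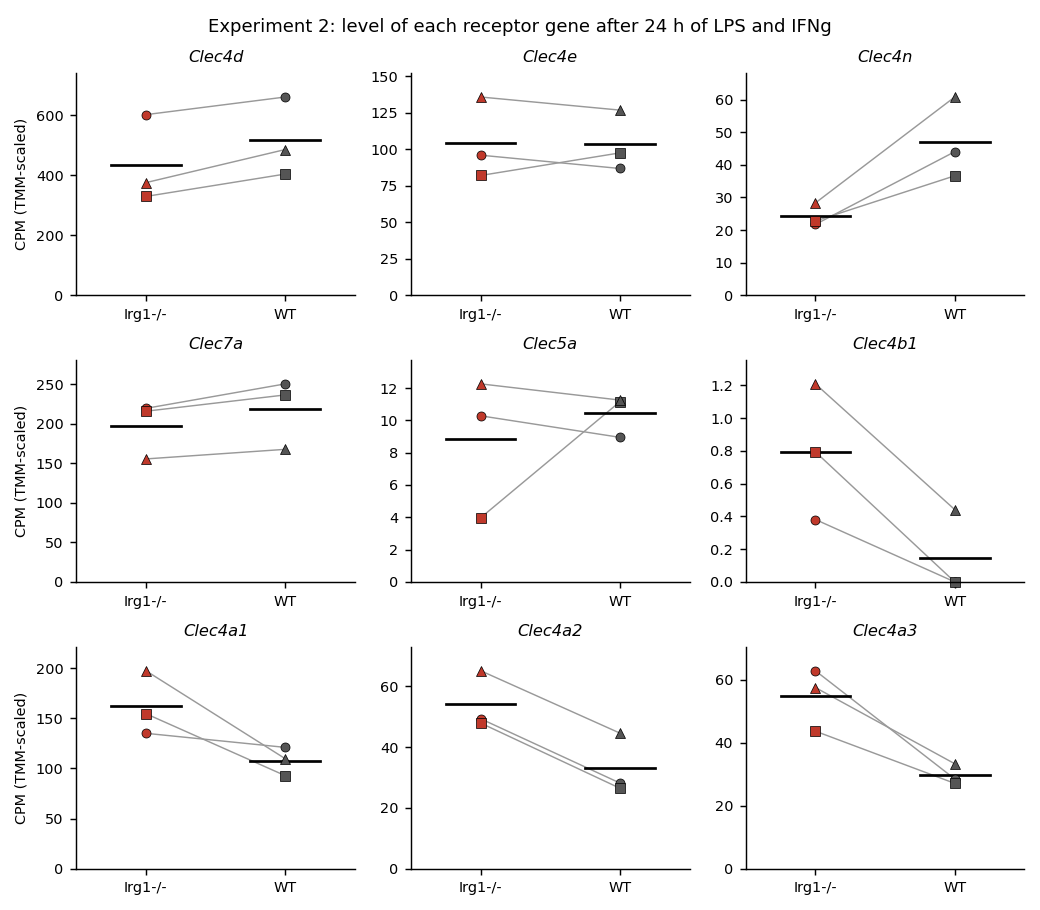
Level of each gene in CPM (TMM-scaled, linear axis from 0) in Irg1-/- and WT libraries of experiment 2 after 24 h of LPS and IFNg. Circles, squares and triangles are replicates 1, 2 and 3, lines join libraries of the same number, and bars are means: for Clec4a1, Clec4a2 and Clec4a3 every Irg1-/- library is above every WT library, and for Clec4n every Irg1-/- library is below, while none passes at an adjusted p under 0.05 without the replicate block. Libraries of the genotypes do not overlap for 13.4% of the 9491 genes tested.

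The 2 experiments share no libraries, and differ in stimulus and time, so their values are set side by side only. For the genes added dimethyl itaconate lowered, Clec4a1 and Clec4a3, the log2 values were -2.16 and -1.05 in DI against Unst, and 0.59 and 0.88 in Irg1-/- against WT. Clec4n had 2.18 in DI against Unst and -0.96 in Irg1-/- against WT. Each of these has opposite signs in the 2 experiments. The Irg1-/- values did not pass without the replicate block (adjusted p = 0.57 for Clec4a1, 0.26 for Clec4a3 and 0.26 for Clec4n). How many of all genes have opposite signs was not counted. Within the cluster, the genes from Clec4a1 to Clec4a2 (0 to 200.8 kb from the start of Clec4a1) had negative values with DI, Clec4n and Clec4d (308.0 and 340.3 kb) had positive ones, and Clec4e (359.9 kb) was at -0.10. Of the other lectin genes in the cluster, which belong to the list of 50 below, Clec4a4 had 0 counts in LPS libraries against 47 in Unst libraries in sum, at least 4.30-fold lower with LPS (taking 3 counts as the floor for the summed LPS libraries), and Clec4b2 had at most 4 counts in any group.

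**Figure D4:**
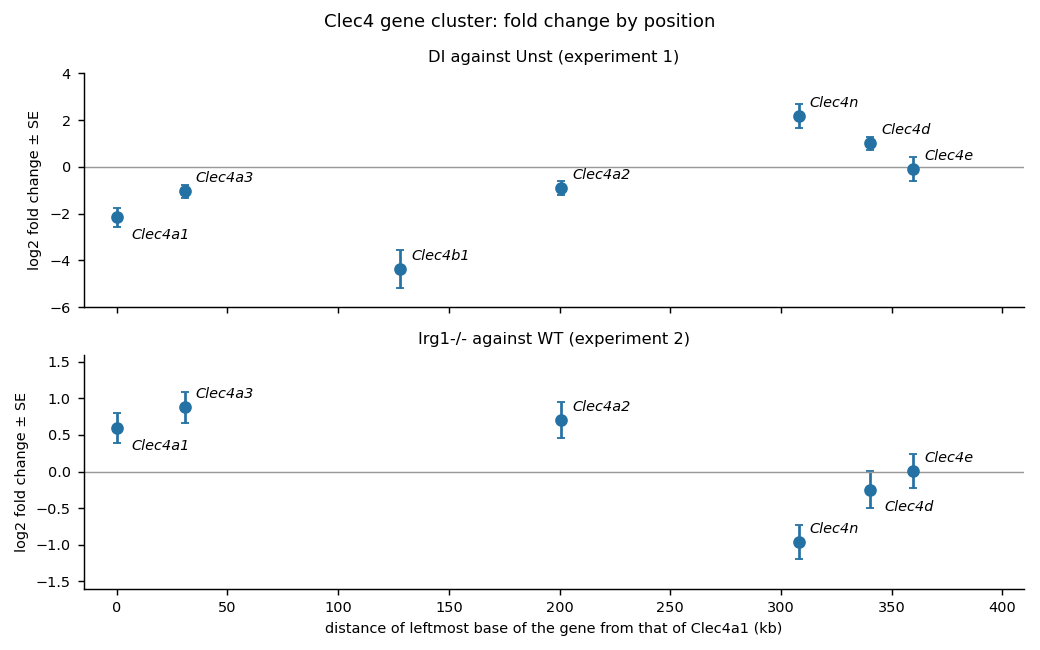
Log2 fold change with its standard error for the genes of the cluster, by the distance of the gene's leftmost base from that of Clec4a1 in kb. In DI against Unst (top) the 4 genes from Clec4a1 to Clec4a2 are below 0 Clec4n and Clec4d above it and Clec4e at -0.10, of which Clec4a2, Clec4d and Clec4e did not pass the test and Clec4b1 was known to fall when chosen; in Irg1-/- against WT (bottom) none passes without the replicate block, and Clec4b1 was too low to test.

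Among the 12 libraries of experiment 1 the genes whose log2 CPM ran most like Clec4e were the chemokine genes Ccl9 and Ccl5 and the phosphodiesterase gene Pde4b (Pearson r = 0.996, 0.99 and 0.988). Clec4n was most like Tmem165, Eif5 and Gmfb (r = 0.986, 0.983 and 0.979), and Clec4d most like Arrdc4, Alas1 and the cystine transporter gene Slc7a11 (r = 0.966, 0.963 and 0.961). Clec7a was most like Acss2, Snx7 and Cbr3 (r = 0.963, 0.96 and 0.95), and Clec5a most like Znfx1, Atp10a and Fam102b (r = 0.965, 0.956 and 0.954).

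Clec4a1 was most like Sdc3, Sdcbp and Axl (r = 0.968, 0.955 and 0.943), Clec4a2 most like Nop53, Cd72 and Fbxl12 (r = 0.949, 0.931 and 0.911), Clec4a3 most like Blnk, Fcgrt and Sulf2 (r = 0.939, 0.924 and 0.919), and Clec4b1 most like Nr4a1, Acbd6 and Stxbp2 (r = 0.929, 0.918 and 0.915). Between members, Clec4e and Clec5a had r = 0.892, Clec4a3 and Clec4d r = -0.897, and Clec4a2 and Clec4n r = -0.839. These values describe 12 libraries in 4 treated groups that share their depth and scaling, and the genes were picked as the highest of all genes tested.

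Of 28 listed genes that carry the receptors' signal, all tested, 10 were higher and 4 lower in LPS against Unst (34.3% of all genes passed), and their median log2 difference was 0.58, against -0.24 over all genes. The counts were 11 higher and 4 lower without the third LPS library (37.9% of all genes passed). By fitted fold, which for genes near 0 depends on the prior count, the largest were Vav2 and Nfatc2, at 1 and 3 counts in LPS libraries in sum (ratios of LPS to Unst 0.0331, exact 95% interval 0.000830 to 0.188, and 0.0387, exact 95% interval 0.00794 to 0.114), and Malt1, part of the CARD9 complex (log2 4.81 ± 0.38 SE, adjusted p = 2.7e-08). The adaptor Fcer1g and the kinase Syk rose (log2 0.81, adjusted p = 0.044, and log2 1.40, adjusted p = 0.0018). The adaptor Tyrobp (log2 -0.77, adjusted p = 0.12) and Card9 (log2 -0.87, adjusted p = 0.20) did not pass. In DI+LPS against LPS 1 of the 28 was higher and 5 were lower (15.9% of all genes passed), and 4 were higher and 7 lower without the third LPS library (18.3% of all genes). The largest were the phospholipase gene Plcg2 (log2 1.88 ± 0.58 SE, adjusted p = 0.035), Vav1 (log2 -1.46 ± 0.31 SE, adjusted p = 0.0039) and Tab2 (log2 -1.22 ± 0.29 SE, adjusted p = 0.0077).

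With DI alone the median log2 difference of the 28 signalling genes was -0.31, against -0.05 over all genes, and 0 were higher and 1 lower (2.84% of all genes passed). In DI+LPS against DI 10 were higher and 1 lower (18.9% of all genes passed), led by Malt1 (log2 4.22 ± 0.37 SE, adjusted p = 1.5e-07) and Nfkb1 (log2 3.60 ± 0.29 SE, adjusted p = 5.9e-08). None passed in the interaction (6 at an unadjusted p under 0.05, and 2 lower in DESeq2; 2 higher and 1 lower without the third LPS library) or in Irg1-/- against WT (2 at an unadjusted p under 0.05, and 0 in DESeq2).

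Of 50 other genes listed as C-type lectin genes by name or by domain, 35 had counts in experiment 1 and 17 passed the filter on low counts. With DI alone, where 2.84% of all genes passed, 1 was higher, the activation marker Cd69 (log2 2.83 ± 0.60 SE, adjusted p = 0.012), and 2 were lower, the inhibitory receptor genes Cd72 (log2 -2.39 ± 0.40 SE, adjusted p = 0.002) and Clec12a (log2 -1.70 ± 0.30 SE, adjusted p = 0.0027). With LPS 5 were higher and 4 lower (34.3% of all genes passed), and without the third LPS library 6 were higher and 5 lower of 18 tested (37.9% of all genes). The 5 include Sele, which passed the filter on low counts through its LPS libraries alone. The 4 include Clec4a4, which passed it through its Unst libraries alone. Both calls are therefore a description and not a test. By fitted fold the first 3 were Cd69 (log2 9.84 ± 0.71 SE, adjusted p = 9.6e-09), the thrombomodulin gene Thbd, with 0 counts in LPS libraries against 293 in Unst libraries in sum (at least 26.8-fold lower), and the selectin gene Sele, with 77 counts against 1 (ratio 280, exact 95% interval 48.8 to 11210). The fitted folds of Thbd and Sele depend on the prior count. Vcan (log2 6.07 ± 0.44 SE, adjusted p = 1e-08) and Olr1 (log2 5.96 ± 0.87 SE, adjusted p = 3.8e-05) were also higher.

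In DI+LPS against LPS 0 of these 17 were higher and 6 lower (15.9% of all genes passed), and without the third LPS library 0 were higher and 7 lower of 18 tested (18.3% of all genes). Sele is among the 6 and had passed the filter through its LPS libraries alone, so its call is a description. By fitted fold the first 3 were Sele, with 0 counts in DI+LPS libraries against 77 in LPS libraries in sum (at least 55.6-fold lower), Vcan (log2 -3.58 ± 0.38 SE, adjusted p = 9.9e-06) and Cd69 (log2 -3.45 ± 0.51 SE, adjusted p = 0.00017). In DI+LPS against DI 4 were higher and 2 lower (18.9% of all genes passed), led by the oxidized lipoprotein receptor gene Olr1 (log2 5.55 ± 0.82 SE), Thbd (log2 -3.62 ± 0.80 SE) and Cd69 (log2 3.57 ± 0.52 SE). In the interaction 4 were lower (2.91% of all genes passed), also without the third LPS library, Cd69 (log2 -6.28 ± 0.78 SE, adjusted p = 0.00023) and Vcan (log2 -3.87 ± 0.54 SE, adjusted p = 0.00047) among them. This count includes Sele, which passed the filter through its LPS libraries alone. None of the 15 tested passed in Irg1-/- against WT (2 at an unadjusted p under 0.05, and 0 in DESeq2).

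The split of all called genes moved with the scaling. In LPS against Unst 46.5% of called genes were higher, against 14.7% with library totals alone and 59.3% with only the 2 groups compared in the fit. The share higher was 46.9% in DI against Unst (27.2% with library totals alone), 52.7% in DI+LPS against LPS (63.2% with library totals alone and 41.8% with only 2 groups), 60.1% in DI+LPS against DI (25.9% with library totals alone and 46.5% in DESeq2), and 47.8% in the interaction (71.3% with library totals alone). In Irg1-/- against WT it was 16.7% of 6 genes (33.3% with library totals alone and 36.1% in DESeq2).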

How the data were processed

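The deposited tables hold counts per gene with Entrez identifiers, made by the authors. STAR, HTSeq, DESeq2 and mm10 are named in the submitters' processing notes, and the sources used here do not give the counting options or the annotation. Of 24052 identifiers, 23969 were matched to a symbol. The labels mention no molecular identifiers. PCR copies are therefore counted, and intervals and floors (3 counts) cover counting error only.

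Genes were kept by filterByExpr with a minimum count of 10, scaled by TMM and tested with edgeR 4.0.16 (quasi-likelihood) in R 4.3.3. Experiment 1 was fitted over its 12 libraries and experiment 2 over its 6. The Benjamini-Hochberg adjustment covered every tested gene (10285 and 9491), at a threshold of 0.05. Fold changes carry a prior count of 0.125. The fit was tested on simulated counts. DESeq2 1.42.0 was an alternative, with other scalings, no filter, a replicate block, fewer groups and each library left out.

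Same-numbered libraries of experiment 2 deviated together (3 of 3 pairs, r = 0.354 to 0.455), so the numbers were taken to pair them. In experiment 1, 6 of 18 pairs had r above 0.1. The members and lists were chosen with earlier results of these data known. Named besides the 9 members were the 3 called genes of largest change per list and comparison, Fcer1g, Syk, Tyrobp, Card9, Vcan and Olr1 in LPS against Unst, the other genes of the cluster (all chosen after their values were seen), and the 3 genes most like each member over log2 CPM with a prior count of 2. Some genes that this rule names are not reported here. Promoters are RefSeq sequence, matched by symbol for 8 of 9 members.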

Additional observations from a re-analysis of the deposited data

Results flagged for a closer look

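For Clec4b1 the effect of dimethyl itaconate with LPS (DI+LPS against LPS) minus its effect without LPS (DI against Unst) was 5.77 ± 1.32 SE on the log2 scale, and 5.39 to 6.17 over the 17 alternatives. It was picked out because the effects with and without LPS differed in the interaction term. No p is given, since the value contains the fall with DI that was known when the gene was chosen, and since the gene passed the filter on low counts through its Unst libraries alone. Counts summed to 12 in DI+LPS, 2 in LPS and 7 in DI libraries, against 121 in Unst libraries.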

How the results depend on the processing

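Of 802 log2 values of single members recomputed under an alternative (in the interaction, those of Clec4a1, Clec4b1 and Clec7a), 680 kept their direction and their side of the threshold, 71 lost a call, 16 gained one and 35 changed sign. Of 102 interaction values of the other 6 members, 23 changed sign. The cause of these changes was not tested.

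Clec4e and Clec5a in LPS against Unst and in DI+LPS against DI, Clec7a in DI+LPS against LPS and Clec4a1 in DI+LPS against DI passed under every alternative run. The number of members called in DI against Unst (4, Clec4b1 included) was 7 in DESeq2 and 7 with only the 2 groups compared. In LPS against Unst (7, Clec4b1 included) it was 4 with only the 2 groups. In DI+LPS against LPS (5) it was 3 with library totals alone, 1 with only the 2 groups and 3 with only those groups and without the third LPS library, a setting chosen after seeing the data. In Irg1-/- against WT (0) the replicate block gave 4. The block also removed the call of Clec4a1 in LPS against Unst (adjusted p = 0.056). Clec4a3 in DI against Unst kept its call with the block, at an adjusted p that rounds to 0.05.

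Over all genes, DI against Unst called 292, and 458 with no low-count filter, 654 in DESeq2 and 990 with only 2 groups. LPS against Unst called 3529, and 5798 with library totals alone and 2108 with 2 groups. DI+LPS against LPS called 1636, and 653 with 2 groups. DI+LPS against DI called 1948, and 3196 with 2 groups. The interaction called 299, and 497 with no filter and 816 in DESeq2. Irg1-/- against WT called 6, and 40 with no filter, 36 in DESeq2 and 594 with the replicate block.

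Leaving out each library in turn gave 1 (without the third DI library) to 7 members (without the third LPS library) and 140 to 803 genes in DI against Unst, 2 to 5 members and 885 to 1948 genes in DI+LPS against LPS, 0 to 3 members and 132 to 806 genes in the interaction (Clec4b1 included), and 3 to 6 genes in Irg1-/- against WT. The lowest of these for members were without the first DI+LPS library (DI+LPS against LPS) and without the first Unst library (interaction), and the highest for all genes in experiment 1 were without the third LPS library.

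Library totals alone moved the median log2 value of all genes by -0.196 in DI against Unst, -0.933 in LPS against Unst, 0.153 in DI+LPS against LPS, -0.589 in DI+LPS against DI and 0.349 in the interaction. DESeq2 size factors moved it by -0.143 in DI+LPS against DI. No filter moved it by -0.11 in LPS against Unst.

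Signs turned for values near 0. Clec4a2 in LPS against Unst was -0.035 with DESeq2 size factors, -0.97 with library totals alone, -0.0069 with no filter, -0.045 in DESeq2, -0.00015 with the replicate block, -0.27 with 2 groups and without the third LPS library, and -0.23 to 0.19 with a library left out. Clec4e in DI+LPS against LPS was -0.056 with DESeq2 size factors, -0.055 in DESeq2, -0.0029 with 2 groups, -0.15 without the third LPS library as well, and -0.16 to 0.30 with a library left out. Clec7a in DI+LPS against DI was -0.12 with DESeq2 size factors, -0.56 with library totals alone, -0.0027 with no filter, -0.12 in DESeq2, -0.0019 with the replicate block, and -0.10 to 0.21 with a library left out. With 2 groups and without the third LPS library, Clec4n in LPS against Unst was 0.23 and Clec5a in DI+LPS against LPS -0.046.

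With a library left out, the log2 values spanned -0.83 to 0.26 (Clec4n, LPS against Unst), -0.049 to 0.51 (Clec5a, DI+LPS against LPS), -0.27 to 0.090 (Clec4a2, DI+LPS against DI), -0.50 to 0.38 (Clec4e, DI against Unst), and in Irg1-/- against WT -0.21 to 0.19 (Clec4e), -0.50 to 0.11 (Clec5a) and -0.30 to 0.011 (Clec7a). In the third LPS library, where Clec4n was at 0, 3 counts equal 5.45 CPM.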
